A study of Mus musculus with 2 samples.

Results

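Genes of fatty acid uptake and binding were followed across the cells of mouse visceral fat. They are Cd36, Slc27a1 and Slc27a4, which act at the membrane, Fabp4, Fabp5 and Fabp3, which bind fatty acids in the cytoplasm, and Acsl1 and Acsl4, which join them to coenzyme A. The 8 genes were chosen by name, with earlier results of these data known, and each was found once among the 27998 genes of the tables. The samples were single-cell suspensions of the stromal vascular fraction, the part of fat that remains without adipocytes, from epididymal white fat of male wild-type C57BL/6J mice aged 18 weeks. The mice were fed a high-fat diet (HFD) for 12 weeks or a normal chow diet (NCD), and no introduced allele or other agent is named for either group. Each diet has 1 library, so diet and library cannot be told apart, and the number of mice in each is not given in the sources used here.

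Long-chain fatty acids reach tissue cells across the capillary wall. Cd36 binds them at the cell surface, and the Slc27 transport proteins and Acsl enzymes turn them into acyl-CoA, which keeps them in the cell. Fabp proteins carry them through the cytoplasm to droplets, mitochondria and the nucleus. In white fat Fabp4 is known from adipocytes, capillary endothelium and macrophages, and Cd36 and Fabp5 are known from the same endothelium and from lipid-laden macrophages.

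Fabp4 and Fabp5 lie near each other on chromosome 3 of GRCm38, Fabp4 (ENSMUSG00000062515) at 10204088 to 10208576 on the minus strand and Fabp5 (ENSMUSG00000027533) at 10012548 to 10016607 on the plus strand. Fabp3 (ENSMUSG00000028773) lies on chromosome 4 at 130308595 to 130315463 on the plus strand. The stretch of 60 coding bases most alike in the 3 genes is shown, because counts of paralogues are separate only where their reads can be told apart. Capitals mark the 37 bases that are the same in all 3, and the stretch spans codons 19 to 38 of Fabp4 and Fabp3 and codons 21 to 40 of Fabp5, in GENCODE vM21 transcripts.
Fabp4: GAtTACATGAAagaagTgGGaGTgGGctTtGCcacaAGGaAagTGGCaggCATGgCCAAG
Fabp5: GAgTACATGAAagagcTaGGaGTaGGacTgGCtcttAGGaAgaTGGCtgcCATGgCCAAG
Fabp3: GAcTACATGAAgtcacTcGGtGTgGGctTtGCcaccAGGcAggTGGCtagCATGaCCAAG
The longest run of bases shared by any transcripts of Fabp4 and Fabp5 was 16, against 14 for Fabp4 and Fabp3 and 11 for Fabp5 and Fabp3. It was 26 for Slc27a1 and Slc27a4 and 16 for Acsl1 and Acsl4. The pseudogene Fabp3-ps1 is counted as a gene of its own, with 9 UMIs (unique molecular identifiers, each standing for 1 captured transcript) in HFD cells and 10 in NCD cells. The gene Zcchc17 overlaps Fabp3 on the other strand, so Fabp3 counts are given with that limit.

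Cd36 (ENSMUSG00000002944) lies on chromosome 5 at 17781690 to 17888801, minus strand. It had the most UMIs of the 3 membrane genes in both libraries, and 1 of its start sites is shown because it held the sole AGGTCA match among the windows found for 6 of the 8 members. The sequence is from RefSeq on GRCm38.p6, chr5:17835847-17836146, minus strand, from 250 bases before the start to 50 after it.
Cd36: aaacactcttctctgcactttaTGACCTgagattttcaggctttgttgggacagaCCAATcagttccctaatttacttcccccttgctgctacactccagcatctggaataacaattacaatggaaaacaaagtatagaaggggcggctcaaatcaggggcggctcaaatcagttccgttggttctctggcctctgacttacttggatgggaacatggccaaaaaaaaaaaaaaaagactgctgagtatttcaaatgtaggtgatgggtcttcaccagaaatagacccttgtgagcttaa
Capitals mark a match to AGGTCA, 1 arm of the element bound by nuclear receptors such as Pparg, read on the other strand from 228 to 223 bases before the start, and a CCAAT box at 195 to 191 bases before it. Both strands were searched. AGGTCA occurred in 16.3% and CCAAT in 37.4% of 32851 promoters of the same length. The full element, AGGTCA repeated after 1 base, occurred in 0.0396% of them and in none of the windows listed for 6 members. TATAAA occurred in 13.6% and the Cebp palindrome in 0.183% of all promoters, and in none of the members' windows. A match is a string of letters and no evidence of binding. The members Slc27a1 (ENSMUSG00000031808, chromosome 8, 71568882 to 71587302, plus strand), Slc27a4 (ENSMUSG00000059316, chromosome 2, 29802634 to 29817522, plus strand), Acsl1 (ENSMUSG00000018796, chromosome 8, 46471037 to 46536051, plus strand) and Acsl4 (ENSMUSG00000031278, chromosome X, 142317993 to 142390535, minus strand) are protein-coding, as are the others.

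Depth differed, with 18623508 UMIs over 6840 barcodes in HFD and 33825653 UMIs over 7365 barcodes in NCD. Medians were 2020 UMIs per barcode in HFD and 4230 in NCD. After filters, 6447 HFD cells and 7161 NCD cells were clustered without the 8 genes and named from markers of each class. The endothelial class held 227 HFD and 346 NCD cells, the macrophage class 2439 HFD and 2091 NCD cells, and the progenitor class, the stromal cells from which adipocytes form, 2893 HFD and 3255 NCD cells. The 10 endothelial markers stood at a median of 2040.2% of their library level in HFD endothelial cells and 2025% in NCD ones. Macrophage markers stood at 205% in HFD and 356% in NCD macrophages, and stromal markers at 190.5% in HFD and 199% in NCD progenitors. The libraries shared 64 barcodes, 61 of them among kept cells.

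Transcripts of other cell types were present in every class. They are called free RNA here, and the part of undetected doublets in them was not tested. The 12 stromal markers stood in endothelial cells at a median of 62.3% of their library level in HFD, against 7.38% in NCD, with none of the 12 at 0 in either. In macrophages they stood at 35.3% in HFD and 5.54% in NCD. The 8 macrophage markers stood in endothelial cells at 55.3% in HFD and 66.4% in NCD, and in progenitors at 21.5% in HFD and 2.97% in NCD. Levels are therefore also given after the library's profile was subtracted in that proportion and the rest rescaled, in clusters with little free RNA, and in the third of cells of each class and library with the fewest foreign markers. Clusters with little free RNA were those under 25% by a single marker set, stromal in endothelial cells and macrophages and macrophage in progenitors. Fewer cells of a kind within a class and less RNA per cell cannot be told apart in the summed counts.

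Levels are CPM, the UMIs of a gene per 1000000 UMIs of the class. HFD over NCD ratios carry exact 95% intervals that cover counting error only, and no test was possible. A member counts as measured at 10 CPM or more in either library, and as higher or lower at 1.5-fold or more. Levels of different genes depend on how each transcript is captured and are not compared.

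**Figure D1:**
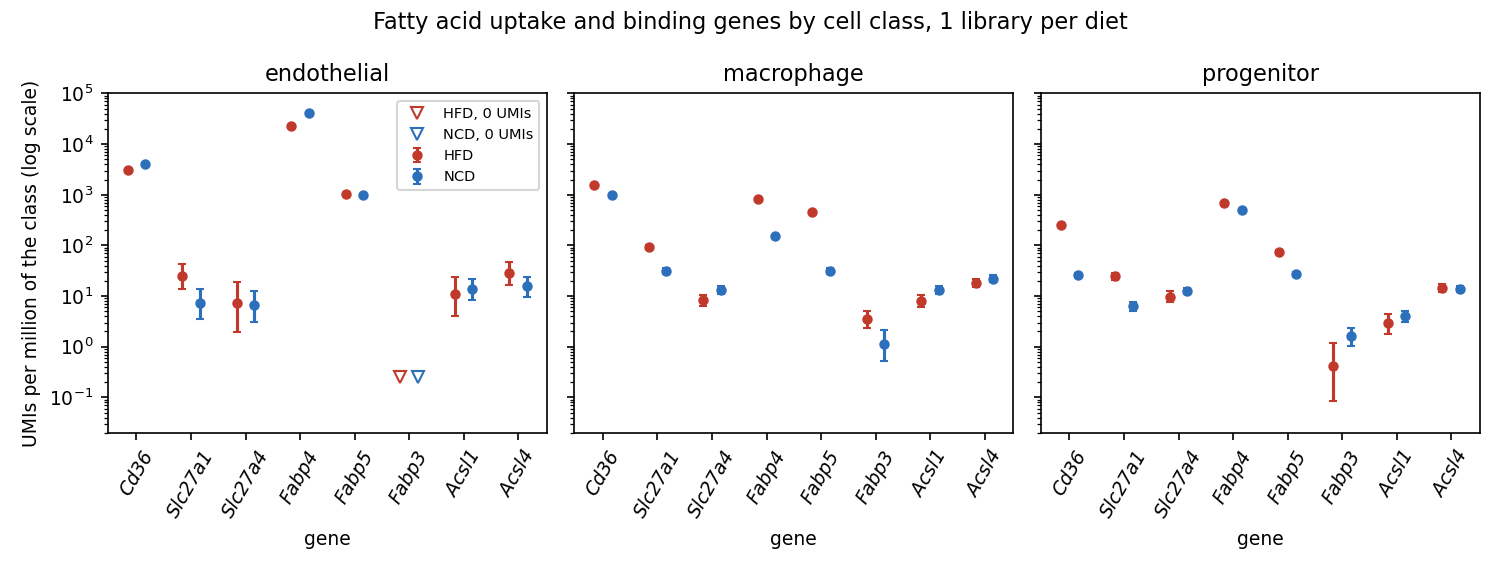
Level of each gene in CPM of the class (log axis) in endothelial, macrophage and progenitor cells, HFD in red to the left of NCD in blue, with exact Poisson 95% intervals; open triangles mark a count of 0 and are placed at an arbitrary height. Fabp5 in macrophages stood at 455 in HFD and 31.1 in NCD, while the endothelial levels of Fabp5 were 1019.5 in HFD and 992 in NCD.

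Over all kept cells, Cd36, Fabp5 and Slc27a1 stood higher in HFD and Fabp4 lower. Cd36 had 886 CPM in HFD and 491 CPM in NCD, a ratio of 1.80 (95% interval 1.77 to 1.85). Fabp5 had 271 CPM in HFD and 90.3 CPM in NCD, and Slc27a1 had 52.5 CPM in HFD and 12.8 CPM in NCD. Fabp4 had 1411 CPM in HFD and 2241 CPM in NCD, a ratio of 0.630 (0.621 to 0.639).

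The cells that held these transcripts differed between the libraries. Of Cd36 UMIs, macrophages held 72.1% in HFD and 49.8% in NCD, and endothelial cells 10.8% in HFD and 34.8% in NCD. Of Fabp5 UMIs, macrophages held 69.7% in HFD and 8.43% in NCD, and endothelial cells 11.6% in HFD and 45.8% in NCD. Endothelial cells held 49.9% of Fabp4 UMIs in HFD and 76.5% in NCD, although they made up 3.52% of HFD cells and 4.83% of NCD cells. Mural cells, the contractile cells around vessels, held another 9.74% of NCD Fabp4 UMIs. Slc27a1 came mainly from macrophages in both libraries, with 73.4% of its UMIs in HFD and 59.7% in NCD.

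**Figure D2:**
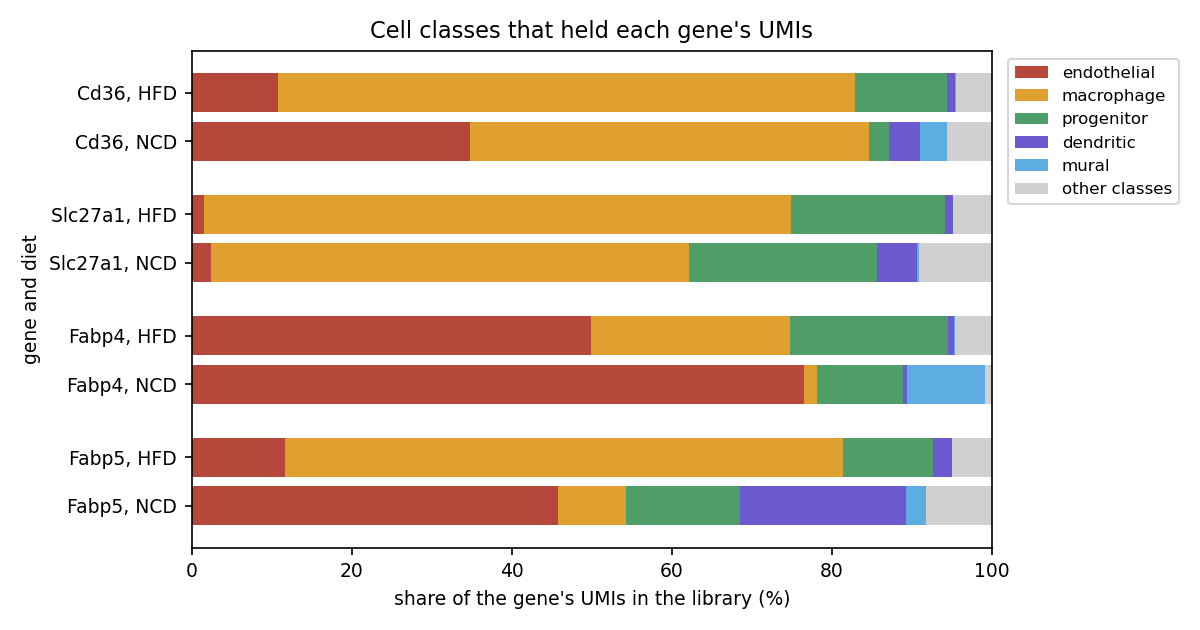
Share of the UMIs of Cd36, Slc27a1, Fabp4 and Fabp5 (%, horizontal axis) held by each cell class, HFD above NCD for each gene. The macrophage part of Fabp5 spans 69.7% in HFD and 8.43% in NCD, and the endothelial part of Fabp4 spans 49.9% in HFD and 76.5% in NCD.

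Among classes of at least 50 cells, Cd36 was highest in endothelial cells and second in macrophages in both libraries. These were 8 classes in HFD and 12 in NCD, and the intervals of these 2 classes overlapped neither each other nor the next class. Fabp4 was highest in endothelial cells in both, followed in HFD by macrophages at 845 CPM and in NCD by progenitors at 499.6 CPM. Fabp5 was highest in endothelial cells, followed by macrophages in HFD and by dendritic cells at 184 CPM in NCD. Mural cells, with 49 in NCD and 1 in HFD, were too few for this order. In NCD they had 33369 CPM of Fabp4, 2539 CPM of Cd36 and 334 CPM of Fabp5, each above the class placed second. Endothelial genes such as Cldn5 were among the leading genes of that cluster. In HFD the 48 cells named mesothelial, also left out, had 2348 CPM of Fabp4, above macrophages. Of these, 41 lay in a cluster with 1 NCD cell that was led by Crisp1, Akr1b7 and Spink8. Only 2 of its 10 leading genes were mesothelial markers, so the name is uncertain for them. Slc27a1 was highest in macrophages in both. In NCD its interval of 27.5 to 35.5 CPM there met that of the next class, neutrophils, at 4.19 to 39.3 CPM. For Slc27a4, Acsl1 and Acsl4, the intervals of the 3 highest classes and the class after each met in both libraries.

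Macrophages differed most between the diets in the binding proteins. Fabp5, the epidermal-type binding protein, had 455 CPM in HFD and 31.1 CPM in NCD, from 3349 and 247 UMIs, a ratio of 14.6 (12.9 to 16.7). Fabp4, the adipocyte-type binding protein, had 845 CPM in HFD and 151 CPM in NCD, a ratio of 5.59 (5.25 to 5.95). The intervals of the 2 libraries did not meet for either gene. Fabp3, the heart-type protein, had only 26 UMIs in HFD and 9 in NCD, or 3.53 and 1.13 CPM, and fell under the level at which a member counts as measured.

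Among the membrane proteins, Cd36 had 1537 CPM in HFD macrophages and 999 CPM in NCD ones, a ratio of 1.54 (1.49 to 1.58). Slc27a1, which couples uptake to acyl-CoA formation, had 92.8 CPM in HFD and 31.3 CPM in NCD, a ratio of 2.96 (2.56 to 3.44). Slc27a4 had 8.29 CPM in HFD and 13.3 CPM in NCD, a ratio of 0.622 (0.446 to 0.860). The 2 transport proteins thus stood on opposite sides of 1. Acsl1, which feeds acyl-CoA to storage and oxidation, had 8.15 CPM in HFD and 13.3 CPM in NCD, a ratio of 0.611 (0.438 to 0.847). Acsl4, which prefers arachidonate, had 18.3 CPM in HFD and 22.1 CPM in NCD, and its interval of 0.657 to 1.04 included 1.

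Of the 8 members, 7 were measured in macrophages, with 4 higher and 2 lower in HFD. Cd36 lay close to the 1.5-fold line, and with every cell thinned to 1400 UMIs its log2 ratio was 0.36, against 0.62 with all UMIs, which left 3 members higher. Of 7493 genes measured, 16.2% were higher and 22.9% lower. The members' median log2 ratio was 0.62, against -0.06 for all genes. As the members were chosen with earlier results known, such comparisons, here and below, are description only.

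The differences in Fabp5, Fabp4 and Cd36 kept their direction with free RNA reduced. Stromal markers stood at 6.69% in the 813 HFD and 1.23% in the 697 NCD macrophages with the fewest of them. Endothelial markers stood in these cells at 19.0% in HFD and 2.74% in NCD. There Fabp5 had 503 CPM in HFD and 22.8 in NCD, Fabp4 had 663 CPM in HFD and 118 in NCD, and Cd36 had 1828 CPM in HFD and 1018 in NCD. Free RNA at the class's share would give 498 of the 845 Fabp4 CPM in HFD and 124 of the 151 in NCD, and 95.7 of the 455 Fabp5 CPM in HFD and 5.0 of the 31.1 in NCD. After subtraction Cd36 stood at 1892 CPM in HFD and 1029 CPM in NCD, Fabp5 at 555 CPM in HFD and 27.6 CPM in NCD, and Fabp4 stood at 536 CPM in HFD and 28.6 CPM in NCD.

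The share of macrophages with a UMI was compared after every cell was thinned to 1400 UMIs, below the shallowest barcode, so no cell was left out. For Fabp5 it was 33.9% in HFD and 2.39% in NCD, and 45.6% in HFD and 6.50% in NCD before thinning. T cells, set beside them as another class that held free RNA, had 8.71% in HFD and 5.16% in NCD, so the NCD macrophage share lay under that of T cells. For Fabp4 it was 57.3% in HFD and 16.4% in NCD macrophages, beside 38.3% in HFD and 13.5% in NCD T cells, and unthinned 71.7% in HFD and 32.9% in NCD macrophages. For Cd36 it was 72.5% in HFD and 69.6% in NCD macrophages, beside 33.3% in HFD and 9.68% in NCD T cells, and unthinned 82.8% in HFD and 90.8% in NCD macrophages. The median T cell had 1994 UMIs in HFD and 3389 in NCD, and the median macrophage 2081 in HFD and 3676 in NCD.

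Different clusters held most macrophages of each diet. In HFD, 1751 cells fell in clusters with markers of lipid-associated macrophages (Trem2, Gpnmb, Spp1 and others), a group with under 20 cells in NCD. Of these cells, 1169 lay in a cluster with only 3 of the listed markers 1.5-fold above the other macrophages. The clusters of 452 and 130 HFD cells had 10 of them up. In NCD, 1291 cells formed the cluster named for resident markers (Lyve1, Cd163, Folr2 and others), which held 41 HFD cells. Subset names rested on comparison with the other macrophages. Some clusters without a subset name also had Lyve1, F13a1 and Cbr2 among their leading genes. They held 473 NCD and 2 HFD cells, 64 HFD and 5 NCD cells, and 57 HFD and 24 NCD cells. Resident cells below are those of the named cluster only. Fabp5 averaged 533 CPM in HFD lipid-associated cells (513 to 554), against 55.1 CPM in HFD resident cells (27.5 to 98.6) and 14.4 CPM in NCD resident cells (11.2 to 18.3). Fabp4 had 980.2 CPM in HFD lipid-associated cells, 135 CPM in HFD resident cells and 110.0 CPM in NCD resident cells. Cd36 differed less, with 1739 CPM in HFD lipid-associated cells, 1288 CPM in HFD resident cells and 1162 CPM in NCD resident cells.

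Within the resident cluster the intervals of the ratio included 1 for 3 genes, though it held few HFD cells. The HFD over NCD ratio was 1.11 for Cd36 (0.974 to 1.26), 1.23 for Fabp4 (0.802 to 1.81) and 0.927 for Slc27a1 (0.335 to 2.06). For Fabp5 it was 3.82 (1.82 to 7.26), from 11 UMIs in HFD and 69 in NCD. In a cluster of cycling cells with 36 cells of each diet and stromal markers at 5.0% in HFD and 3.01% in NCD, Fabp5 had 504 CPM in HFD and 25.2 CPM in NCD. Cd36 there had 1473 CPM in HFD and 801 CPM in NCD, and Slc27a1 had 91.6 CPM in HFD and 15.1 CPM in NCD, from 28 and 3 UMIs. A cluster with no subset name held 318 HFD and 34 NCD cells, with stromal markers at 8.57% in HFD and 2.37% in NCD. Its Fabp5 level was 265 CPM in HFD and 206 CPM in NCD, with a ratio interval of 0.923 to 1.83. Its Cd36 level was 975 CPM in HFD and 964 CPM in NCD. Fabp4 in it had 599 CPM in HFD and 278 CPM in NCD. In another, with 57 HFD and 24 NCD cells, stromal markers stood far higher, at 102% in HFD and 151% in NCD. Its Fabp5 ratio interval was 0.254 to 8.41, and its Fabp4 ratio was 0.856 (0.582 to 1.26). Cd36 in that one had 827 CPM in HFD and 414 CPM in NCD.

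The 3 lipid-associated clusters were not alike. The smallest, 130 HFD cells with stromal markers at 6.25%, had 2766 CPM of Cd36, 662 of Fabp5 and 155 of Slc27a1. The next, 452 cells at 16.8%, had 2153 CPM of Cd36, 872 of Fabp5 and 137 of Slc27a1. The largest, 1169 cells with stromal markers at 76.0%, had 1067 CPM of Cd36, 320.2 of Fabp5 and 61.8 of Slc27a1. All 3 genes were thus lowest in the cluster with most stromal RNA, while Fabp4, at 817, 1085 and 1010.3 CPM in that order, did not follow it.

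**Figure D3:**
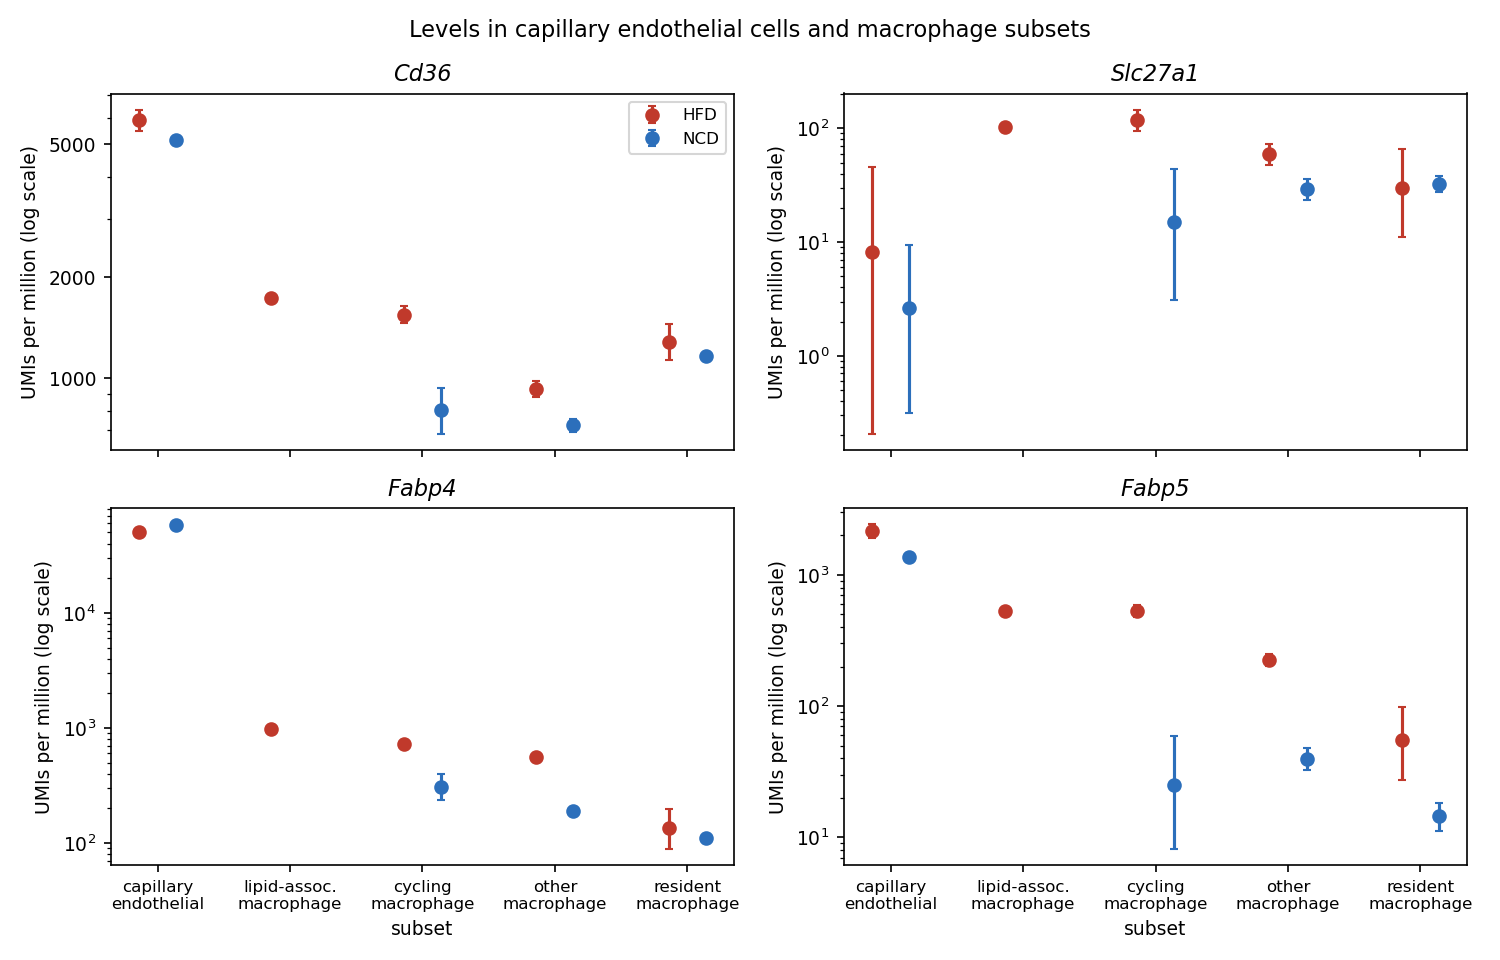
Levels of Cd36, Slc27a1, Fabp4 and Fabp5 in CPM (log axes) in capillary endothelial cells and macrophage subsets, HFD in red to the left of NCD in blue, with exact Poisson 95% intervals; a subset with under 20 cells in a library has no point. In resident macrophages the HFD and NCD points lie close for Cd36, at 1288 in HFD and 1162 in NCD, and in cycling macrophages they lie apart for Fabp5, at 530.4 in HFD and 25.2 in NCD.

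In endothelial cells, Fabp4 was lower in HFD, Cd36 somewhat lower and Fabp5 level, but each of these readings changed with free RNA. Fabp4 had 22730.4 CPM in HFD and 41158 CPM in NCD, a ratio of 0.552 (0.542 to 0.563). Cd36 had 3095 CPM in HFD and 4098 CPM in NCD, a ratio of 0.755 (0.715 to 0.798). Fabp5 had 1019.5 CPM in HFD and 992 CPM in NCD, a ratio of 1.03 (0.929 to 1.13). Per 10000 UMIs of a cell, the median cell had 150.4 Fabp4 UMIs in HFD and 478 in NCD, with quartiles of 67.9 and 350.2 in HFD and 194 and 705 in NCD, so the cells of the libraries overlapped.

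After subtraction of the share given by the stromal markers, Fabp4 stood at 57993 CPM in HFD and 44260.4 CPM in NCD, and Cd36 at 6749 CPM in HFD and 4385 CPM in NCD, so both directions turned. Fabp5 then stood at 2257 CPM in HFD and 1064 CPM in NCD. With the share given by the macrophage markers, Fabp4 stood at 49075 CPM in HFD and 118150 CPM in NCD, Cd36 at 5825 CPM in HFD and 11234 CPM in NCD, and Fabp5 at 1944 CPM in HFD and 2777 CPM in NCD. All 3 genes were then lower in HFD. In the 75 HFD and 115 NCD endothelial cells with the fewest foreign markers, Cd36 had 4996 CPM in HFD and 4981 CPM in NCD. Fabp4 there had 39404 CPM in HFD and 58908 CPM in NCD. Free RNA still differed in these cells, with stromal markers at 11.6% in HFD and 1.74% in NCD. Macrophage markers stood at 13.5% in HFD and 1.86% in NCD. The directions of Fabp4 and Cd36 in endothelium thus depended on the markers from which free RNA was estimated. No single share held for all cells of the class. The NCD macrophage share of 66.4% pooled a cluster at 182% with the capillary cluster at 3.23%. The HFD stromal share of 62.3% likewise pooled a cluster at 89.0% with the capillary cluster at 8.80%. The subtracted Fabp4 levels of 118150 CPM in NCD and 57993 CPM in HFD exceeded the capillary cluster's 58148 and 50256 CPM. No direction is read from either subtraction.

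Most HFD endothelial cells, 69.6%, fell in a cluster where stromal markers stood at 89.0%, and most NCD ones, 68.8%, in the cluster with capillary markers. That capillary cluster held 48 HFD and 238 NCD cells, with stromal markers at 8.80% in HFD and 4.08% in NCD and macrophage markers at 5.44% in HFD and 3.23% in NCD. A further 22.8% of NCD endothelial cells lay in a cluster with macrophage markers at 182%. Gpihbp1, a capillary marker, was among the leading genes of that cluster and of the HFD cluster at 89.0%. Their lack of a capillary name, which rested on comparison with the rest of the class, does not set them apart as another endothelium. In the capillary cluster Cd36 had 5894 CPM in HFD and 5131 CPM in NCD, a ratio of 1.15 (1.06 to 1.24). Fabp5 had 2146 CPM in HFD and 1367 CPM in NCD, a ratio of 1.57 (1.37 to 1.80). Fabp4 had 50256 CPM in HFD and 58148 CPM in NCD, a ratio of 0.864 (0.841 to 0.888). A cluster with lymphatic markers and 20 cells of each diet stood the other way for Fabp4, with 31838 CPM in HFD and 19537 CPM in NCD. The 9 adipocyte markers summed in the capillary cluster to 122 CPM in HFD, with 7 of 9 at 0, and to 1053 CPM in NCD, with none at 0 and 59 UMIs of Adipoq. Fabp4 is itself an adipocyte gene, and the part of adipocyte RNA in its NCD level was not tested.

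The other members were sparse in endothelium. Slc27a1 had 14 UMIs in HFD and 10 in NCD, or 25.5 and 7.39 CPM, where free RNA alone would give 32.7 CPM in HFD and 0.948 CPM in NCD. Acsl4 had 29.1 CPM in HFD and 15.5 CPM in NCD, with an interval of the ratio of 0.915 to 3.77. Acsl1, at 10.9 CPM in HFD and 14.0 CPM in NCD, and Slc27a4, at 7.28 CPM in HFD and 6.65 CPM in NCD, had intervals that included 1. Fabp3 had 0 UMIs in both, which allows up to 1.61% of HFD and 1.06% of NCD cells with a UMI by the Clopper-Pearson interval. Of 6 members measured, 2 were higher and 1 lower in HFD, against 15.8% higher and 24.4% lower among 8652 genes. The members' median log2 ratio was -0.16, against -0.13 for all genes.

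Progenitors showed a 9.55-fold higher Cd36 level in HFD (8.57 to 10.7), with 248 CPM in HFD and 26.0 CPM in NCD. Fabp5 had 75.2 CPM in HFD and 27.0 CPM in NCD, a ratio of 2.78 (2.45 to 3.17). Slc27a1 had 24.7 CPM in HFD and 6.31 CPM in NCD, a ratio of 3.91 (3.04 to 5.05). Macrophage markers stood at 21.5% in HFD and 2.97% in NCD progenitors, as given above. Free RNA at that share would give 190.4 of the 248 Cd36 CPM in HFD and 14.6 of the 26.0 in NCD, and 58.3 of the 75.2 Fabp5 CPM in HFD and 2.68 of the 27.0 in NCD.

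After subtraction Cd36 stood at 73.9 CPM in HFD and 11.8 CPM in NCD, and Fabp5 at 21.6 CPM in HFD and 25.1 CPM in NCD, so that Fabp5 was no longer higher. After thinning, 27.8% of HFD and 2.64% of NCD progenitors had a Cd36 UMI, beside 33.3% of HFD and 9.68% of NCD T cells. The progenitor shares lay below those of T cells, where macrophage markers stood higher, at 35.8% in HFD and 17.2% in NCD. No expression, or lack of it, is read from the shares alone. Unthinned, the progenitor shares were 37.8% in HFD and 8.39% in NCD. In the 964 HFD and 1085 NCD progenitors with the fewest macrophage markers, which stood there at 2.37% in HFD and 0% in NCD, Cd36 had 109 CPM in HFD and 19.8 CPM in NCD. Slc27a1 had 17.7 CPM in HFD and 7.31 CPM in NCD in those cells.

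Among the 4 largest HFD progenitor clusters, the Cd36 level went with the macrophage markers. It was 498 CPM in the 830 cells where they stood at 51.8%, 278 CPM in the 303 cells at 27.5%, 216 CPM in the 1139 cells at 12.0% and 84.6 CPM in the 328 cells at 5.11%. In the last of these, a cluster with markers of committed preadipocytes, the 27 NCD cells had 61.6 CPM, a ratio of 1.37 (0.741 to 2.83). In the cluster with interstitial progenitor markers, 61 HFD cells had 63.2 CPM of Cd36 and 602 NCD cells had 16.6 CPM, a ratio of 3.8 (2.14 to 6.48), with macrophage markers at 5.88% in HFD. Smaller HFD clusters did not all keep the order, as 30 cells with macrophage markers at 38.8% had 509 CPM, the highest level. The others had 64.2 CPM in 109 cells at 5.47%, 74.6 CPM in 27 cells at 5.60% and 53.1 CPM in 40 cells at 5.14%. The part of free RNA in these levels was not tested.

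Fabp4 in progenitors had 680.5 CPM in HFD and 499.6 CPM in NCD, a ratio of 1.36 (1.31 to 1.41) under the 1.5-fold line. It was 499 CPM in HFD and 492 CPM in NCD in the cells with fewest macrophage markers. Endothelial cells held the largest share of Fabp4 UMIs, and their markers stood in those progenitors at 8.38% in HFD and 0% in NCD. Over all progenitors the endothelial markers stood at 34.1% in HFD and 7.29% in NCD. The part of endothelial RNA in progenitor Fabp4 was not tested. Within NCD it varied by subset, with 846 CPM in cells with markers of the F3-positive subset, 799 CPM in committed cells and 146 CPM in interstitial cells, whose interval of 132 to 159.7 met neither of the others. Acsl4 had 14.5 CPM in HFD and 14.0 CPM in NCD, with a ratio interval of 0.809 to 1.31, and Slc27a4 had 9.78 CPM in HFD and 12.6 CPM in NCD, with an interval of 0.585 to 1.03. Acsl1, at 2.89 CPM in HFD and 4.05 CPM in NCD, and Fabp3, with 3 UMIs in HFD and 25 in NCD, were under the measured level. Of the 6 measured members 3 were higher and none lower in HFD, against 8.06% higher and 14.7% lower among 8079 genes. The members' median log2 ratio was 0.96, against -0.21 for all genes.

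**Figure D4:**
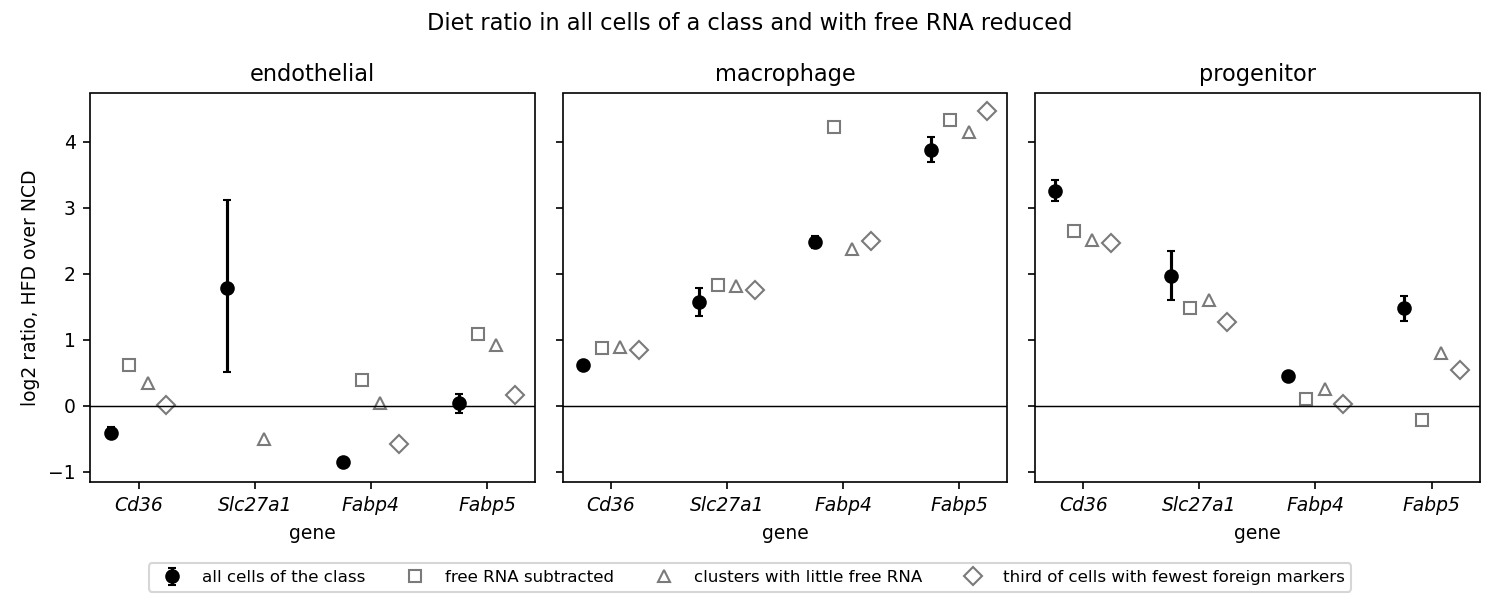
Log2 ratio of HFD over NCD for Cd36, Slc27a1, Fabp4 and Fabp5 in endothelial, macrophage and progenitor cells, for all cells of the class (filled circles with 95% intervals) and with free RNA reduced by subtraction (squares; stromal markers in endothelial cells and macrophages, macrophage markers in progenitors), by cluster (triangles) or by cell (diamonds); Slc27a1 in endothelium lacks points where a library was at 0. The endothelial triangles rest on clusters picked by stromal markers only, which include the NCD cluster with macrophage markers at 182%. Macrophage points stay above 0, while endothelial Fabp4 runs from -0.86 to 0.39 and progenitor Fabp5 from 1.48 to -0.22.

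Dendritic cells, a smaller class, carried a separate Fabp5 pattern. Fabp5 had 207 CPM in HFD and 184 CPM in NCD over the class, a ratio of 1.12 (0.911 to 1.37). In 1 dendritic cluster, with 33 HFD and 28 NCD cells, it had 993 CPM in HFD (800.4 to 1218) and 2692 CPM in NCD (2451 to 2949.5), so it was lower in HFD there. The same cluster had 648 CPM of Fabp4 in HFD and 211 CPM in NCD, beside 539 CPM in HFD and 176 CPM in NCD T cells. Over all dendritic cells, stromal markers stood at 24.3% in HFD and 2.84% in NCD. Endothelial markers stood at 31.7% in HFD and 7.02% in NCD, and the part of free RNA in these levels was not tested.

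The genes whose profile over 19 pairs of class and library was most like each member's were listed from 3099 genes, as a description. These pairs share 2 libraries and their depth and free RNA. For Fabp4 they were Hrct1 (Pearson r = 0.97), Gpihbp1 (0.95), which holds lipoprotein lipase on capillary walls, and the transcription factor Meox2 (0.95). Gpihbp1 and Meox2 are also among the capillary markers. For Cd36 they were Cd93 (0.89), Plk2 (0.87) and the complement gene C1qa (0.82), and for Fabp5 Mkl2 (0.86), Ctnnbip1 (0.80) and Plk2 (0.79). For Slc27a1 they were Syngr1 (0.90), the proton pump subunit Atp6v0d2 (0.89) and Lipa (0.89), the lysosomal acid lipase. Among the members, Cd36 and Fabp5 had r = 0.75, Fabp4 and Fabp5 0.73, Cd36 and Fabp4 0.71 and Acsl1 and Acsl4 0.62, while Fabp3 and Acsl4 had -0.60.

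Other genes of fatty acid handling, in lists written with earlier results of these data known, were counted in the same classes. In macrophages, 2 of 6 other transporters and receptors were higher and none lower in HFD. Over all measured genes of these cells 16.2% were higher and 22.9% lower, as given above. There 4 of 14 measured genes of mitochondrial fatty acid oxidation were higher and 1 lower in HFD. Both subunits of the trifunctional protein were among them, Hadhb at 87.6 CPM in HFD and 51.4 CPM in NCD and Hadha at 74.5 CPM in HFD and 43.8 CPM in NCD. Cpt1a, the gate enzyme for entry into mitochondria, had 36.3 CPM in HFD and 60.6 CPM in NCD, a ratio of 0.598 (0.513 to 0.696). Of 4 measured binding proteins other than the members, 1 was higher, the acyl-CoA binding protein Dbi, at 584 CPM in HFD and 379 CPM in NCD. Of 5 other synthetases and thioesterases, 3 were higher and 1 lower, and the thioesterase Acot13 had 67.0 CPM in HFD and 41.6 CPM in NCD. Of 7 triglyceride synthesis genes 1 was higher and 1 lower, and of 7 transcriptional regulators 2 were higher and 1 lower, with Cebpb at 678 CPM in HFD and 668 CPM in NCD.

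Arachidonate enzymes, which use the acid that Acsl4 activates, split in macrophages, with 4 of 11 measured higher and 4 lower in HFD. Ltc4s, which makes leukotriene C4, had 86.8 CPM in HFD and 836 CPM in NCD, a ratio of 0.104 (0.0956 to 0.113). Alox5 had 6.52 CPM in HFD and 70.1 CPM in NCD, and Ptgs1 had 8.29 CPM in HFD and 80.9 CPM in NCD. Hpgds, a prostaglandin D synthase, stood the other way at 131 CPM in HFD and 35.5 CPM in NCD.

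In endothelial cells, list counts stand beside 15.8% of all genes higher and 24.4% lower. Of 10 measured regulators 4 were lower and 1 higher in HFD, with Tcf15 at 206 CPM in HFD and 507 CPM in NCD, Meox2 at 81.9 CPM in HFD and 152 CPM in NCD, and Pparg at 124 CPM in HFD and 201 CPM in NCD. Tcf15 and Meox2, transcription factors of fat and heart endothelium, are capillary markers too. Most HFD cells of the class lay in the cluster with stromal markers at 89.0%, which lacked the capillary name though Gpihbp1 was among its leading genes. Of 6 other transporters 2 were lower and 1 higher, with a median log2 ratio of -0.04. Cav1, the coat protein of caveolae, had 584 CPM in HFD and 1238 CPM in NCD, and the scavenger receptor Scarb1 had 315 CPM in HFD and 276 CPM in NCD. Of 9 triglyceride synthesis genes 4 were lower and 1 higher, of 5 other binding proteins 2 were lower and none higher, and of 5 other synthetases and thioesterases 1 was higher and 1 lower. Fatty acid oxidation had 1 gene higher and 1 lower of 15 measured, and arachidonate enzymes 4 higher and 4 lower of 12. The 10 endothelial markers summed to 4319 CPM in HFD and 7692 CPM in NCD in this class, and their part in these differences was not tested.

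In progenitors, beside 8.06% of all genes higher and 14.7% lower, none of 15 measured oxidation genes passed 1.5-fold, with Etfa at 122 CPM in HFD and 165 CPM in NCD. Cav1 had 31.8 CPM in HFD and 84.4 CPM in NCD, a ratio of 0.377 (0.327 to 0.434). Of 3 other transporters 1 was higher and 1 lower, and of 5 other binding proteins none was higher and 1 lower. Of 4 other synthetases and thioesterases 3 were higher and none lower. Triglyceride synthesis, with 7 genes measured, and the regulators, with 9, each had 1 higher and 1 lower. Of 11 arachidonate enzymes 3 were higher and 3 lower. Alox5ap had 63.9 CPM in HFD and 10.8 CPM in NCD, and Ptgis, which makes prostacyclin, had 111 CPM in HFD and 242 CPM in NCD. Alox5ap is known from myeloid cells, and its level in HFD progenitors stands beside the macrophage markers at 21.5% in HFD and 2.97% in NCD, whose part was not tested.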

How the data were processed

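The deposited UMI counts per gene and barcode were used as the authors deposited them; these are whole numbers and were not normalized. Per the submitters' processing notes, Cell Ranger, Seurat and mm10 were used, with no version stated. No barcode held under 1401 UMIs. The members and gene lists were chosen with earlier results of these data known.

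Cells with at least 500 genes, 1000 UMIs and at most 20% mitochondrial UMIs were kept. Scrublet doublets were removed, 339 in HFD and 183 in NCD. In HFD its own threshold called 0, so the top 5% of scores were taken. Both libraries were clustered together without the members (2000 variable genes, 30 components, 15 neighbours, Leiden resolution 1, then 0.3 within clusters), giving 27 and then 59 clusters. A cluster took the name of the class with the highest marker score, with at least 3 markers 1.5-fold up. The haemoglobin list was left out of naming after free haemoglobin RNA was seen to outrank endothelial markers, which departs from the planned rule. A cluster whose 10 leading genes held more markers of another class stayed unnamed, and every name stands for a likeness only.

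UMIs were added up per class and library and given as CPM. With 1 library per diet no test was made. Poisson, conditional binomial and Clopper-Pearson intervals are exact at 95% and cover counting error only, so mice and preparations are not covered. A count of 0 was set to 3 in a ratio. Listed genes were named from up to 4 per list and class with the largest absolute log2 ratio, in either direction, at 50 CPM or more in either library. Similar genes had at least 100 CPM in 1 profile, and the 3 with the highest correlation were named. Free RNA was estimated from foreign markers. The ratio code was tested on simulated counts. Alternatives changed the filters, doublets, clustering, naming, scaling, low-level cut and free RNA handling, and 3 of them were chosen after the data were seen (the haemoglobin naming, the third of cells with the fewest foreign markers and endothelial subtraction by macrophage markers). Python 3.11.15, scanpy 1.11.5, scipy 1.17.1 and pandas 2.3.3 were used.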

Additional observations from a re-analysis of the deposited data

How the results depend on the processing

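With 1 library per diet, no replicate could be left out. No paired analysis was possible because each diet has 1 library. All macrophage directions held in 12 of 12 alternatives, for each of the 8 members. Endothelial directions were less stable, and Cd36 kept its own in 9 of 13, between -0.95 and 0.62 on the log2 scale. Few UMIs limit what can be said of Fabp3, Slc27a4, Acsl1 and Acsl4. The cause of the changes below was not tested.

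Directions turned for Cd36 in endothelium at 0.62 with free RNA subtracted and 0.35 in clusters with little free RNA, and at 0.0076 with the stricter filter and 0.0043 in the cells with the fewest foreign markers, against -0.40. They also turned for Fabp4 in endothelium at 0.39 with free RNA subtracted and 0.037 in clusters with little free RNA, for Slc27a1 in endothelium at -0.50 in those clusters, for Fabp5 in progenitors at -0.22 with subtraction, and for Fabp3 in progenitors at 0.12 with classes from each cell's marker score. In endothelium the clusters with little free RNA were picked by stromal markers only, and they kept the NCD cluster with macrophage markers at 182%. In the capillary cluster alone the ratio was 0.864 (0.841 to 0.888) for Fabp4 and 1.15 (1.06 to 1.24) for Cd36. In the cluster with lymphatic markers, 20 cells of each diet, it was 1.63 (1.52 to 1.75) for Fabp4 and 2.12 (1.73 to 2.61) for Cd36. Fabp5 in endothelium, whose main interval included 0, ranged from -0.51 to 1.08. Slc27a4 and Acsl1 in endothelium and Acsl4 in progenitors also changed sign, with main intervals that included 0.

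The median member log2 ratio of endothelial cells was 0.62 with subtraction by stromal markers, -0.61 with subtraction by macrophage markers and -0.40 at a minimum of 50 CPM. In macrophages it was 0.95 with no cell filter, 0.88 with a stricter one, 0.80 with doublets kept, 0.79 at Leiden resolution 2, 0.87 with members among the clustering genes, 0.74 with classes from marker scores, 0.71 with median-ratio size factors and 0.36 after thinning. It was 0.88 with subtraction, 0.89 in clusters with little free RNA, 0.84 in the cells with the fewest foreign markers, 1.09 at a minimum of 1 CPM and 2.02 at 50 CPM. In progenitors it was 1.09 with no filter, 0.61 with a stricter one, 1.10 with marker scores, 1.15 with size factors, 1.26 after thinning, 0.048 with subtraction, 0.53 in clusters with little free RNA, 0.35 in the cells with the fewest foreign markers, 0.24 at 1 CPM and 1.48 at 50 CPM.

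Endothelial members higher by 1.5-fold numbered 1 in clusters with little free RNA, with the haemoglobin list in naming and with subtraction by macrophage markers, and 0 at 50 CPM. Those lower numbered 3 with subtraction by macrophage markers, 2 after thinning and 0 with subtraction by stromal markers, little free RNA, the haemoglobin list, the stricter filter and the fewest foreign markers. Macrophage members lower numbered 1 with no filter, doublets kept, members clustered, marker scores, subtraction and little free RNA, and 0 with the stricter filter, the fewest foreign markers and 50 CPM. In progenitors 1 was lower after thinning and at 1 CPM.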
